A study of Mus musculus with 8 samples.

Results

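DNA mismatch repair genes were followed here as 6 of the 53465 genes in a read-count table of Ba/F3 cells, namely Msh6, Msh3, Pms2, Mlh3, Pms1 and Exo1. They were taken by symbol, all 6 were found, and all 6 passed the filter on low counts. Ba/F3 is an immortalised mouse line of the C3H strain background, labelled as pro-B cells, that depends on interleukin-3. Of the 8 libraries, 5 (replicates 4 to 8) came from Ba/F3 cells transformed with U2AF35(S34F), a mutant form of the small subunit of the splicing factor that reads the end of an intron. The other 3 (replicates 1 to 3) came from parental Ba/F3 cells with wild-type U2AF35. The labels do not say how the mutant was introduced, which promoter drives it, or whether any library stands for a clone or a culture of its own. The p-values below therefore measure only the spread between these libraries, which may be technical.

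Mismatch repair removes bases that were paired wrongly during DNA replication, and small loops left by slippage on repeated sequence. MutS complexes find the mismatch. A MutL complex is then recruited and nicks the new strand, an exonuclease removes the stretch that holds the error, and a replicative polymerase and a ligase close the gap. Msh6 and Msh3 are alternative recognition subunits, each joined to one common MutS partner. Msh6 directs it to single mismatches and very short loops, Msh3 to longer loops. Pms2, Mlh3 and Pms1 are alternative subunits that join one common MutL partner. Loss of the pathway raises the mutation rate, most visibly at microsatellites. In B cells it also takes part in the diversification of antibody genes, through Msh6 and Exo1 among others in mice.

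The upstream sequences below show what the members' start regions hold and how closely some of them adjoin another gene. RefSeq windows of 250 bases before the start (GRCm38.p6) were available for 5 of the 6 members, and those of Msh6, Pms2, Pms1 and Mlh3 (which has a second start) are described here. Capitals mark matches, on either strand and overlapping ones included, to the box named for its letters, CCAAT, to GGGCGG, known as the GC box, and to TATAAA, a form of the TATA box. The 3 stretches shown are at chr17:87974800-87975049 (+ strand, Msh6), chr5:143909848-143909963 (+ strand, Pms2) and chr1:53297029-53297094 (- strand, Pms1). Each is written in the direction of its gene's transcription and leaves out bases in annotated exons. For Pms1, whose window has 94 bases in annotated exons, only the 66 bases next to the start are shown. Bases outside exons that lie farther upstream are left out there too.
Msh6: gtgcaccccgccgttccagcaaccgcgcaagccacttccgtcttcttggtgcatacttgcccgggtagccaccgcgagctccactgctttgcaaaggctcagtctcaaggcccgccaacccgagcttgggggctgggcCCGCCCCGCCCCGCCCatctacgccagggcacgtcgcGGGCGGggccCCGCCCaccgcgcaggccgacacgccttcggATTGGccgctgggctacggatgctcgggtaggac
Pms2: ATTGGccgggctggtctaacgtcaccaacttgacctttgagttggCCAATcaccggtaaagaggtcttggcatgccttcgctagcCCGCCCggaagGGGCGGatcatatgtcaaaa
Pms1: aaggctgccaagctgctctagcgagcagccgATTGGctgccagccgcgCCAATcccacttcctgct
The Msh6 window was 70.8% G and C and held 5 GC boxes and 1 CCAAT box. The Pms2 window held 3 CCAAT boxes, 1 of them outside the stretch shown, and 2 GC boxes, the Pms1 window 2 CCAAT boxes, and each Mlh3 window 1 CCAAT box. CCAAT occurred in 34.2% of 27025 RefSeq windows of that length, GGGCGG in 32.7% and TATAAA in 12.9%, and none of the windows described held TATAAA. A match to these letters describes the sequence and does not show binding.

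Library totals ran from 36122062 counts in transformed 7 to 50305573 in parental 1. Levels are given as CPM (counts relative to the library total after scaling by TMM factors), and log2 fold changes (transformed over parental) come from edgeR's quasi-likelihood F test with Benjamini-Hochberg adjustment over 17733 genes and a threshold of 0.05. The test called 533 genes, 161 higher and 372 lower in transformed cells. U2af1, which encodes U2AF35, was at 131 ± 24.4 CPM in transformed and 91.7 ± 6.47 CPM in parental cells (SD, n = 5 and 3), and its adjusted p of 0.108 in edgeR missed the threshold. Its counts do not separate the mutant from the wild-type form. Of 12 early B lineage markers, 10 were under 1 CPM in every library, Pax5 and Ebf1 among them, and Il7r and Rag1 had 0 counts throughout; Cd79a and Cd79b were present, with a marker sum of 54.3 to 77.6 CPM in transformed and 63.3 to 76.0 CPM in parental libraries. The 3 IL-3 receptor genes summed to 1502 to 6017 CPM in transformed and 5374 to 7689 CPM in parental libraries, and none was called. Of 6 T cell markers 5, and all 8 fibroblast markers, were under 1 CPM everywhere. Macrophage markers summed to 56.8 to 414 CPM in transformed and 241 to 343 CPM in parental libraries. Of these 5 markers 3 were tested, and 1, Cd68, was called lower (log2 fold change -0.46, adjusted p = 0.0484, edgeR), beside 2.1% of all genes tested. Cd14 went the other way without being called (log2 fold change 1.97, adjusted p = 0.252, edgeR). Cd68 was at most 11.4 CPM and Cd14 at most 2.99 CPM in any library, and 2 markers were under 1 CPM everywhere. Most of the sum and of its spread thus came from the remaining tested marker, which was not called. The part of these markers in the results below was not tested.

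No member of the mismatch repair set passed the test in edgeR, against 3.01% of all genes tested. None reached an unadjusted p of 0.05 in that fit, as 22.2% of all genes did. DESeq2 and limma-voom also called 0 of the 6, against 10.5% and 3.24% of all genes. The fitted folds (transformed over parental) lay between 0.902 for Msh6 and 1.05 for Exo1, and the 95% intervals reached from 0.635 to 1.45, both bounds set by Mlh3. The median log2 fold change of the members was -0.054, with 5 negative and 1 positive, beside 0.017 over all genes tested. In all 6 genes the 2 groups overlapped, which describes these genes only, as the share over all genes is not given beside it. These intervals leave room for differences of the size they span, so the groups are not shown to be alike.

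**Figure D1:**
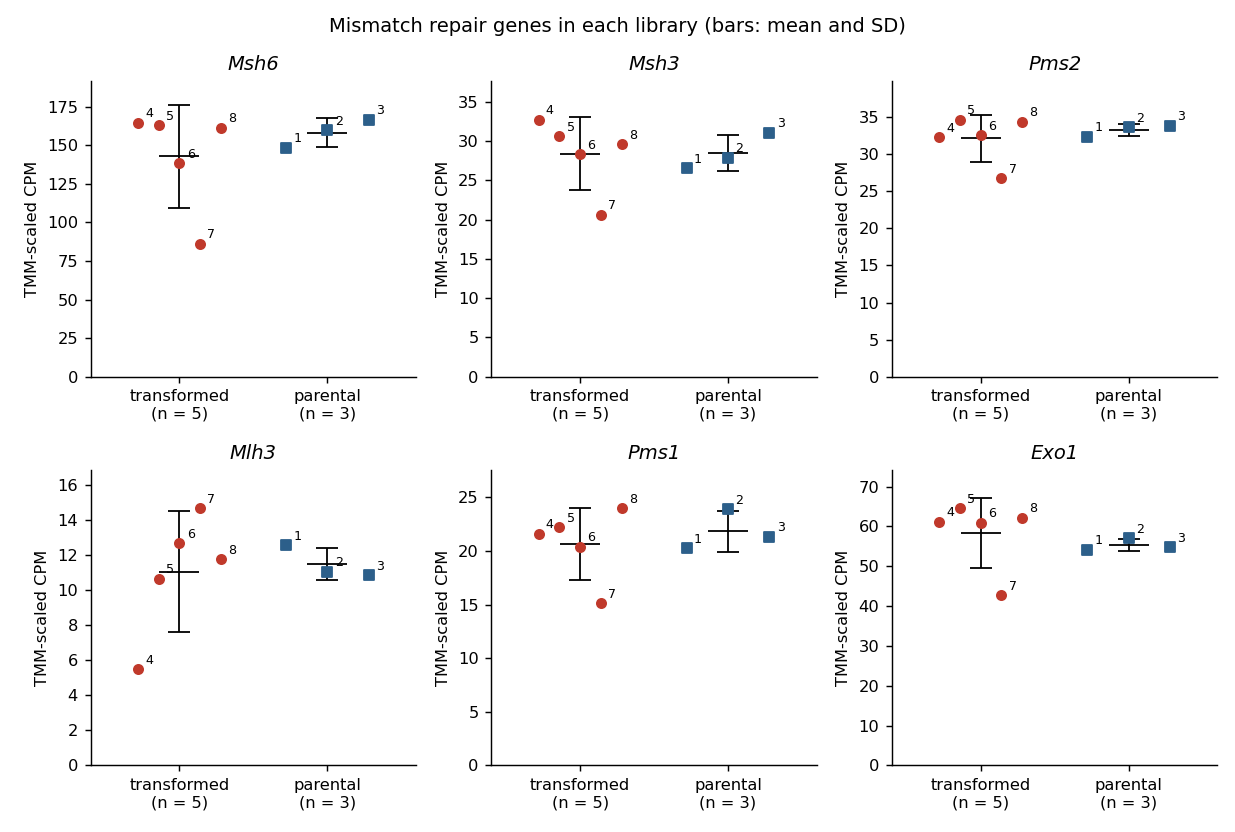
TMM-scaled CPM (vertical axis, from 0) of the 6 mismatch repair genes in each of the 5 transformed (red circles) and 3 parental (blue squares) libraries, numbered by replicate, with the mean and SD of each group. Transformed 7 is the lowest library in 5 of the 6 panels, and transformed 4 is the lowest for Mlh3.

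Msh6 (ENSMUSG00000005370, chr17:87975062-87990892, + strand, GRCm38) is the recognition subunit for single mismatches. It was at 165, 163, 138, 86.3 and 161 CPM in transformed 4, 5, 6, 7 and 8, against 148, 160 and 167 CPM in parental 1, 2 and 3. Transformed 7 lay far under every other library, transformed 6 a little under the parental ones, and the other transformed libraries inside the parental range. The means were 143 ± 33.3 CPM in transformed and 158 ± 9.13 CPM in parental cells (SD, n = 5 and 3). The fitted log2 fold change was -0.15 (SE 0.19, 95% interval -0.58 to 0.29, adjusted p = 0.701, edgeR). Without transformed 7 it was -0.013 (95% interval -0.21 to 0.18), with a transformed mean of 157 ± 12.3 CPM. By the lane tags in the labels, transformed 5 and 8 ran with parental 1 and 3 in lane 6, and transformed 4, 6 and 7 with parental 2 in lane 7. Msh6 had a log2 fold change of 0.055 within lane 6 and -0.30 within lane 7, which has 1 parental library.

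Msh3 (ENSMUSG00000014850, chr13:92211872-92355003, - strand), the recognition subunit for longer loops, was at 32.7, 30.6, 28.3, 20.6 and 29.6 CPM in transformed 4 to 8 in order. It was at 26.6, 27.9 and 31.0 CPM in parental 1 to 3. Transformed 7 was again the lowest, transformed 4 the highest, and the rest overlapped. Msh3 had a log2 fold change of -0.0045 (SE 0.15, 95% interval -0.34 to 0.33, adjusted p = 0.992, edgeR). The value was 0.091 without transformed 7, 0.079 within lane 6 and -0.038 within lane 7. Among the members Msh3 had the fitted fold nearest to 1, and its sign turned under 8 of the 19 other settings tried.

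Pms2 (ENSMUSG00000079109, chr5:143909964-143933968, + strand) encodes the subunit that gives the main MutL complex its nicking activity. Its level was 32.3, 34.7, 32.6, 26.8 and 34.4 CPM in transformed 4 to 8, against 32.4, 33.6 and 33.9 CPM in parental 1 to 3. The libraries other than transformed 7 lay within a few CPM of each other in both groups. For Pms2 the log2 fold change was -0.050 (SE 0.10, 95% interval -0.28 to 0.18, adjusted p = 0.817, edgeR), and the interval was the narrowest of the 6 genes. The log2 fold change was 0.0087 without transformed 7, 0.074 within lane 6 and -0.14 within lane 7. The coefficient of variation was 9.90% in transformed and 2.40% in parental libraries, the smallest of the members in each group.

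Mlh3 (ENSMUSG00000021245, chr12:85234520-85270599, - strand), a MutL subunit known in mice mainly for crossing over in meiosis, was at 5.47, 10.6, 12.7, 14.7 and 11.8 CPM in transformed 4 to 8. Parental 1 to 3 had 12.6, 11.03 and 10.9 CPM. Transformed 4, with 271 counts, was the lowest of the 8 libraries at 47.7% of the parental mean, and transformed 7 was the highest at 128%, so that the transformed libraries enclosed the parental ones on both sides. Mlh3 was the lowest member in counts and had the widest spread among transformed libraries, with a coefficient of variation of 31.2% in transformed and 8.13% in parental libraries. The log2 fold change was -0.057 (SE 0.26, 95% interval -0.65 to 0.54, adjusted p = 0.924, edgeR). It was 0.11 without transformed 4 and -0.18 without transformed 7, and -0.050 and -0.020 within lanes 6 and 7.

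Pms1 (ENSMUSG00000026098, chr1:53189187-53297018, - strand) encodes a further MutL subunit, whose part in repair is less well defined. It was at 21.6, 22.2, 20.4, 15.1 and 23.98 CPM in transformed 4 to 8, against 20.3, 23.9 and 21.3 CPM in parental 1 to 3. Apart from transformed 7 the transformed values spanned nearly the same range as the parental ones. Pms1 had a log2 fold change of -0.078 (SE 0.15, 95% interval -0.41 to 0.26, adjusted p = 0.801, edgeR). Of the members, Pms1 had the widest gap between the lanes, with 0.17 within lane 6 and -0.33 within lane 7, which holds transformed 7. It was 0.015 without that library.

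Exo1 (ENSMUSG00000039748, chr1:175880581-175913489, + strand) encodes the exonuclease that removes the nicked strand. It was at 61.2, 64.6, 61.0, 42.7 and 62.2 CPM in transformed 4 to 8, against 54.2, 57.1 and 54.7 CPM in parental 1 to 3. Transformed 4, 5, 6 and 8 were each above all parental libraries, and transformed 7 was below all of them. The means were 58.3 ± 8.84 CPM in transformed and 55.3 ± 1.53 CPM in parental cells, with a log2 fold change of 0.076 (SE 0.13, 95% interval -0.23 to 0.38, adjusted p = 0.784, edgeR). Without transformed 7 the transformed mean was 62.2 ± 1.64 CPM and the log2 fold change 0.17 (95% interval 0.018 to 0.32, unadjusted p = 0.0322, adjusted p = 0.148, edgeR), where 7.62% of genes were called. Within lane 6 it was 0.23 (unadjusted p = 0.0212, adjusted p = 0.0787, edgeR), where 20.4% of genes were called, and within lane 7 it was -0.059. Exo1 was the only member to reach an unadjusted p of 0.05 under any setting, and its adjusted p stayed above the threshold in all 20. An unadjusted p under 0.05 was reached by 26.8% of all genes without transformed 7 and by 35.6% within lane 6.

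Levels of different members were compared per kilobase of annotated exon, as CPM per kb over all 8 libraries. Msh6 stood far above the others at 34.2 ± 6.18 CPM per kb, followed by Exo1 at 6.79 ± 0.82, Pms2 at 4.01 ± 0.31, Pms1 at 2.80 ± 0.37, Msh3 at 2.53 ± 0.33 and Mlh3 at 1.48 ± 0.35 (SD, n = 8). Msh6, Exo1 and Pms2 each exceeded the next gene in 8 of 8 libraries with no overlap of ranges. Pms1 and Msh3 overlapped, as did Msh3 and Mlh3, and in each pair the first was higher in 7 of 8 libraries. The length used matters for the middle of the order. Divided by the longest transcript, the transformed means were 33.6 for Msh6, 7.48 for Exo1, 6.77 for Pms1, 6.67 for Msh3, 5.22 for Pms2 and 2.02 for Mlh3 CPM per kb. Msh6 stayed first and Mlh3 last, while Pms2 moved behind Pms1 and Msh3.

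Msh6 and Msh3 share a partner, as do the 3 MutL subunits, and ratios of members within a library were compared as counts per kb of exon, which library scaling does not touch. The ratio of Msh6 to Msh3 was 13.03, 13.8, 12.7, 10.8 and 14.1 in transformed 4 to 8, against 14.5, 14.8 and 13.9 in parental 1 to 3. Of the transformed libraries, only transformed 8 reached the parental range. The log2 difference (transformed minus parental) was -0.17 (2-sided exact permutation test over 56 splits, p = 0.107), and it was -0.026 within lane 6 and -0.29 within lane 7. The size of the ratio depends on the lengths used, whereas the log2 difference does not.

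The ratio of Exo1 to Msh6 was 0.192, 0.205, 0.227, 0.256 and 0.199 in transformed 4 to 8, against 0.188, 0.185 and 0.170 in parental 1 to 3. All 5 transformed libraries were above all 3 parental ones, the closest pair being transformed 4 and parental 1. The means were 0.216 ± 0.0259 in transformed and 0.181 ± 0.00994 in parental cells (SD, n = 5 and 3), and the log2 difference was 0.25 (2-sided exact permutation test, p = 0.0536). Adjusted over the 4 ratios compared, the p of this ratio and that of Msh6 to Msh3 were each 0.214, in a design whose smallest possible p is 0.0179 (exact permutation). Neither difference passed the threshold. The log2 difference of Exo1 to Msh6 was 0.18 within lane 6 and 0.28 within lane 7.

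The ratio of Pms2 to Mlh3 was 5.48 in transformed 4 and 1.70 in transformed 7, with 3.03, 2.39 and 2.72 in transformed 5, 6 and 8, against 2.40, 2.84 and 2.90 in parental 1 to 3. The 2 extremes thus both came from transformed libraries, on opposite sides of the parental range. Pms2 to Pms1 was 1.33 to 1.64 in transformed libraries and 1.31 to 1.48 in parental ones. The log2 differences were 0.070 for Pms2 to Mlh3 (exact permutation p = 0.839, adjusted 0.839) and 0.036 for Pms2 to Pms1 (exact permutation p = 0.732, adjusted 0.839). The second was -0.091 within lane 6 and 0.20 within lane 7.

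**Figure D2:**
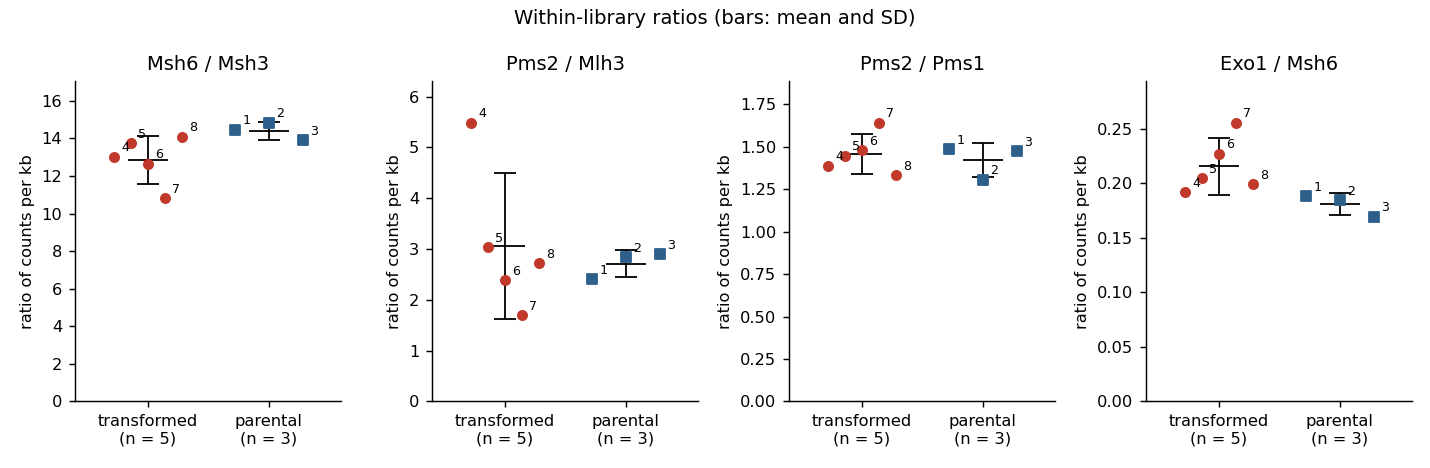
Ratios of counts per kb of exon within each library (vertical axes, from 0) for 4 gene pairs, in 5 transformed (red circles) and 3 parental (blue squares) libraries numbered by replicate, with mean and SD. The groups separate only for Exo1 to Msh6, where transformed libraries lie between 0.192 and 0.256 and parental ones between 0.170 and 0.188.

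The spread among transformed libraries was larger than that among parental ones for every member, with coefficients of variation of 9.90% to 31.2% in transformed and 2.40% to 8.64% in parental libraries. Most of it lay in transformed 7 and transformed 4. In transformed 7 the level was 54.5% of the parental mean for Msh6, 69.3% for Pms1, 72.4% for Msh3, 77.2% for Exo1 and 80.4% for Pms2. Transformed 7 was the lowest of the 8 libraries in 5 of the 6 members, and also in 4782 (27.0%) of the 17733 genes tested. It had the fewest counts of any library, and the part of its depth in these levels was not tested. In transformed 4 only Mlh3 stood apart, and the other 5 members were at 97.0% to 115% of their parental means.

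**Figure D3:**
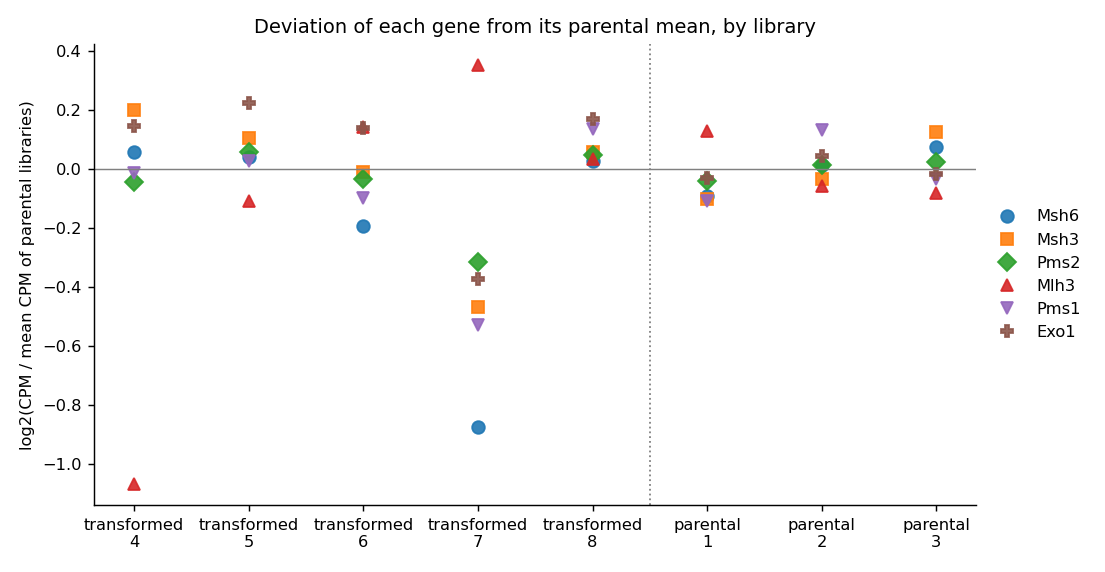
Log2 of each mismatch repair gene's CPM over its mean in the 3 parental libraries (vertical axis) for transformed 4 to 8 and parental 1 to 3 (horizontal axis). Msh6, Msh3, Pms2, Pms1 and Exo1 lie below zero together in transformed 7, where Mlh3 is above zero, and Mlh3 alone is far below zero in transformed 4.

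Genes that act with the members were taken as a list of 15 for the sliding clamp, its loader, the single-strand binding protein, the replicative polymerase delta, the ligase and Hmgb1. All 15 were tested, 0 rose and 1 fell, beside 0.908% of all genes called higher and 2.1% called lower. The list's median log2 fold change was -0.075, with 10 members negative and 5 positive. The gene that fell was Pold4, the smallest subunit of polymerase delta. Pold4 (chr19:4231899-4233634, + strand) was at 22.2, 18.3, 20.0, 22.1 and 20.1 CPM in transformed 4 to 8, against 44.0, 35.5 and 37.0 CPM in parental 1 to 3. Every transformed library was below every parental one, transformed 7 included. The log2 fold change of Pold4 was -0.92 (SE 0.11, adjusted p = 0.00758, edgeR), and it passed under 18 of 19 other settings, missing within lane 7 (log2 fold change -0.74, adjusted p = 0.9996), where 0 genes passed. Pold4 lies on chromosome 19, where the 511 genes tested had a median log2 fold change of -0.34 and 78 (15.3%) were called. How far the fall of Pold4 goes with that of its chromosome was not tested. The members lie on chromosomes 1, 5, 12, 13 and 17, with chromosome medians between -0.0091 and 0.046.

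Pold2, the regulatory subunit of polymerase delta, was at 88.3, 108, 104, 102 and 104 CPM in transformed 4 to 8, against 78.4, 80.3 and 66.6 CPM in parental 1 to 3. The groups did not overlap, but its log2 fold change of 0.43 (SE 0.099) just missed the threshold (adjusted p = 0.0538, edgeR) and passed under 7 of 19 other settings. Pcna, the sliding clamp that MutS and MutL complexes bind, was at 436, 296, 305, 245 and 299 CPM in transformed 4 to 8, against 417, 399 and 380 CPM in parental 1 to 3. Transformed 4 was above all parental libraries, and the other 4 transformed ones were below them. The log2 fold change of Pcna was -0.33 (SE 0.16, adjusted p = 0.266, edgeR). Rfc2, of the clamp loader, was at 172, 118, 121, 70.0 and 107 CPM in transformed 4 to 8, against 178, 160 and 168 CPM in parental 1 to 3. Here transformed 4 was inside the parental range and the other 4 were again below it (log2 fold change -0.52, adjusted p = 0.220, edgeR). Pcna and Rfc2 each passed under 3 of 19 other settings. Both were named after their values were seen.

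**Figure D4:**
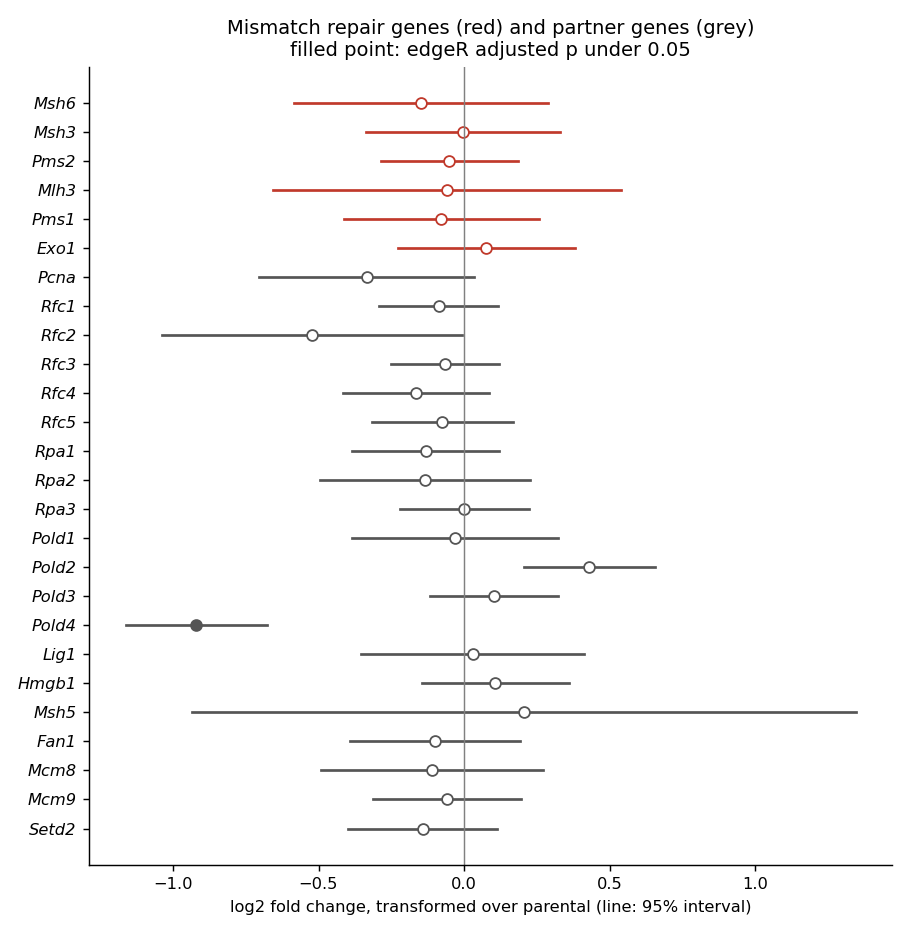
Log2 fold change, transformed over parental (horizontal axis), with 95% interval for the 6 mismatch repair genes (red) and 20 partner and accessory genes (grey); a filled point has an edgeR adjusted p under 0.05. Only Pold4 is filled, at -0.92, and the intervals of the 6 mismatch repair genes all include 0.

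Accessory and meiotic relatives made a list of 6, of which 5 were tested. Of these 0 passed in either direction, beside 3.01% of all genes tested, and the median log2 fold change was -0.099. Setd2, the histone methyltransferase whose mark the MSH6 protein binds in human cells, was at 152 ± 19.7 CPM in transformed and 168 ± 7.73 CPM in parental cells (adjusted p = 0.501, edgeR). Fan1, a nuclease that binds MutL proteins in human cells, was at 8.54 ± 1.05 CPM in transformed and 9.15 ± 0.565 CPM in parental cells (adjusted p = 0.702, edgeR). Msh4, a meiotic MutS gene, had 3 to 11 counts in a library and was not tested. Its meiotic partner Msh5 was at 29.7, 11.03, 8.32, 8.71 and 5.16 CPM in transformed 4 to 8, against 11.1, 10.9 and 10.8 CPM in parental 1 to 3. Transformed 4, the library with the lowest Mlh3, thus had the highest Msh5, and the log2 fold change of Msh5 was 0.21 (SE 0.50, adjusted p = 0.849, edgeR). Msh5 was named after its values were seen.

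Mismatch repair genes are commonly higher in dividing cells, and 26 genes of S phase and replication licensing were read beside them. None rose and 1 fell, beside 0.908% of all genes called higher and 2.1% called lower. Of the 26, 18 were negative, and the median log2 fold change was -0.13. The one that fell was E2f1, a transcription factor of the G1 to S transition, at 32.4, 26.5, 25.1, 22.8 and 23.6 CPM in transformed 4 to 8, against 40.0, 41.3 and 39.1 CPM in parental 1 to 3. All 5 transformed libraries were lower than the 3 parental ones. Its log2 fold change was -0.62 (SE 0.12, adjusted p = 0.0368, edgeR), and it passed under 11 of 19 other settings. With lane as a covariate E2f1 missed the threshold at a similar log2 fold change of -0.65 (adjusted p = 0.0721, edgeR). E2f1 lies on chromosome 2, whose median log2 fold change was -0.15 over 1349 genes. Gins4, of the replicative helicase, had the next smallest p in this list, with a log2 fold change of -0.39 (adjusted p = 0.0619, edgeR). It passed under 5 of 19 other settings. In transformed 7, 17 of the 26 genes were at their lowest of the 8 libraries, as were 10 of the 15 clamp and polymerase partners. Over all genes tested the share was 27.0%. Among the other lists it was 10 of 19 double-strand break, 7 of 16 base excision, 5 of 19 nucleotide excision and 2 of 5 accessory genes tested.

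The other repair pathways were counted in the same fit, which called 3.01% of all genes tested. Of 17 base excision repair genes 16 were tested and 0 passed, with a median log2 fold change of -0.033. Lig3, a ligase, was at 85.5 ± 7.28 CPM in transformed and 63.0 ± 4.96 CPM in parental cells (log2 fold change 0.44, adjusted p = 0.0503, edgeR). Neil3, a glycosylase, was at 52.8 ± 13.02 CPM in transformed and 78.1 ± 10.9 CPM in parental cells (log2 fold change -0.57, adjusted p = 0.130, edgeR). Lig3 passed under 9 of 19 other settings and Neil3 under 3. All 19 nucleotide excision repair genes were tested and 0 passed, and their median was 0.11, with 12 positive and 7 negative. Ercc6, of transcription-coupled repair, had a log2 fold change of 0.66 (adjusted p = 0.0530, edgeR). Rad23b, a partner of the damage sensor Xpc, had one of 0.42 (adjusted p = 0.0558, edgeR). Under 19 other settings Ercc6 passed in 8 and Rad23b in 6.

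Of 19 double-strand break repair genes, all were tested, 0 rose and 1 fell, beside 0.908% of all genes called higher and 2.1% called lower. Their median log2 fold change was -0.045. The gene that fell was Nhej1, which aligns broken ends for ligation. It was at 2.79, 2.74, 3.06, 2.40 and 2.71 CPM in transformed 4 to 8, against 4.54, 4.10 and 4.74 CPM in parental 1 to 3, so that the groups did not overlap. Its log2 fold change was -0.70 (SE 0.13, adjusted p = 0.0315, edgeR), and it passed under 11 of 19 other settings. With lane as a covariate Nhej1 missed the threshold at a log2 fold change of -0.68 (adjusted p = 0.0729, edgeR). Xrcc5, the large Ku subunit, had a log2 fold change of 0.47 (adjusted p = 0.0528, edgeR) and passed under 7 of 19 other settings. Mean log2 deviations from the parental level in transformed 7 were -0.36 over the mismatch repair genes, -0.34 over the clamp and polymerase partners, -0.30 over S phase genes, -0.19 over base excision genes, -0.12 over double-strand break genes and -0.020 over nucleotide excision genes. Whether these lists differ from each other in that library was not tested.

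**Figure D5:**
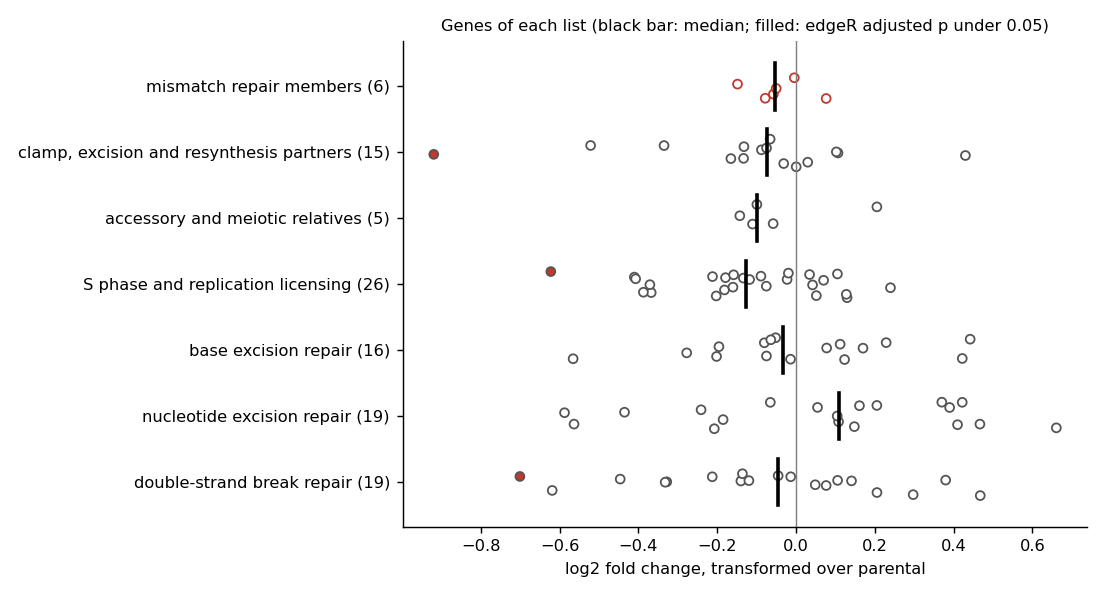
Log2 fold change, transformed over parental (horizontal axis), of each tested gene in 7 lists, with the number tested in brackets and the list median as a black bar; mismatch repair genes are outlined in red, and filled points have an edgeR adjusted p under 0.05. The 6 mismatch repair genes lie between -0.15 and 0.08, and the 3 filled points are Pold4, E2f1 and Nhej1.

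Genes adjoining the members were read next, because no source used here gives the strand setting of the counting, and reads of overlapping genes on opposite strands then cannot be told apart. Pms2 starts 117 bases from Aimp2, a scaffold protein of tRNA synthetases, and Pms1 starts 77 bases from Ormdl1, a regulator of sphingolipid synthesis, each on the opposite strand.

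Aimp2 was at 30.0 ± 4.68 CPM in transformed and 22.7 ± 3.28 CPM in parental cells (log2 fold change 0.41, adjusted p = 0.161, edgeR), and in transformed 7 it was at 121% of its parental mean. Ormdl1 was at 27.4 ± 2.08 CPM in transformed and 28.9 ± 0.618 CPM in parental cells (adjusted p = 0.680, edgeR), and at 99.8% in transformed 7. The divergent neighbours of Pms2 and Pms1 were thus not low in the library in which Pms2 and Pms1 were lowest. Msh6 overlaps the end of Fbxo11, a ubiquitin ligase subunit, by 34 bases. Fbxo11 was at 81.2 ± 9.57 CPM in transformed and 65.1 ± 4.51 CPM in parental cells (log2 fold change 0.32, adjusted p = 0.142, edgeR), and at 145% of its parental mean in transformed 7, where Msh6 was at 54.5%. Near Mlh3, Acyp1 lies 1799 bases away and was at 13.8 ± 2.30 CPM in transformed and 19.6 ± 1.32 CPM in parental cells (log2 fold change -0.51, adjusted p = 0.0928, edgeR). On its other side Eif2b2 was at 74.3 ± 6.08 CPM in transformed and 76.1 ± 3.88 CPM in parental cells. Leaving aside genes that overlap them, the nearest protein-coding genes downstream were Foxn2, 449819 bases from Msh6, and Ccz1, 53941 bases from Pms2. Foxn2 was at 70.6 ± 10.5 CPM in transformed and 56.3 ± 1.56 CPM in parental cells. Ccz1 was at 60.8 ± 5.76 CPM in transformed and 60.3 ± 2.49 CPM in parental cells. Inside Msh3 and Mlh3, on the opposite strand, lie Gm20379, at 4.18 ± 0.214 CPM in transformed and 3.93 ± 0.489 CPM in parental cells, and the pseudogene Gm46369, at 3.27 ± 0.464 CPM in transformed and 3.07 ± 0.187 CPM in parental cells. None of these 5 genes passed the test in edgeR.

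The genes whose levels followed each member most closely were found by Pearson correlation of log2 CPM over the 8 libraries, among 9103 genes. They were Kdm2b (r = 0.993) and Fn3krp (0.991) for Msh6, Med23 (0.986) and Sesn1 (0.982) for Msh3, and Polr2j (0.995) and Ctcf (0.990) for Pms2. For Mlh3 they were Stk17b (0.991) and Lilrb4a (0.989), for Pms1 Ndufaf7 (0.981) and Edc3 (0.977), and for Exo1 Slc5a6 and Atp5l (both 0.986). None of these 12 genes passed the test between groups. Transformed 7 was among the 2 libraries farthest from the median for every member, and without those 2 the correlations were 0.687 (Kdm2b) to 0.966 (Fn3krp). Of the 12 genes, 8 were also among the 50 most alike by Spearman's rho. The points share their libraries and were picked as the highest of many, so these values describe these libraries only.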

How the data were processed

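PolyA RNA of 8 Ba/F3 libraries (5 transformed, 3 parental) was extracted with Trizol and made into libraries with a TruSeq kit, per the labels' protocols. The authors deposited whole-number read counts per Ensembl gene, not normalised. STAR 2.5.3a, featureCounts 1.5.3, mm10 and GRCm38.p5 are named in the submitters' processing notes; the strand setting, multi-mapping rule and annotation version are not stated in the sources at hand, so counts of overlapping or closely similar genes are uncertain. The table had 0 columns outside the 8 libraries. Symbols and coordinates came from GENCODE vM21 (GRCm38), with no match for 105 IDs, and upstream sequences from RefSeq (GRCm38.p6).

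Counts were tested on the whole table with edgeR 4.0.16 in R 4.3.3 (robust quasi-likelihood F test, 2-sided, on TMM factors after filterByExpr, common biological coefficient of variation 0.230), after a test on simulated data. For every 2 libraries, chi-square per degree of freedom was at least 18.0, so none agreed within counting noise. Ratios used a prior count of 0.5 and scipy 1.17.1. Alternatives were DESeq2 1.42.0, limma-voom (limma 3.58.1), RLE and upper-quartile factors, 2 other low-count filters, lane as a covariate, each lane alone, leaving out each library or transformed 4 and 7, and removal of a trend on GC content. Named genes were the members; in each list, those past the threshold and the 2 with the smallest p; per member the 2 most correlated genes (log2 CPM, prior count 2, average log2 CPM of at least 3); and adjoining genes, of which those under 1 CPM in every library are not described; 1 adjoining gene, with a ratio and a start region that involve it, is not reported here. The members, lists and tests were chosen with earlier results of these data known.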

Additional observations from a re-analysis of the deposited data

Results flagged for a closer look

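Among the transformed libraries, Exo1 in transformed 7 stood apart at 42.7 CPM, against 61.0 CPM in the nearest of the other transformed libraries. The gap was 0.835 of the range of the 5 libraries, above Dixon's critical value of 0.71. Levels of some of the genes reported here, and ratios, were screened in 22 sets of 5 transformed libraries. This was the 1 set that passed, where chance passes about 1 set in 20. The same library was lowest for Msh6, Msh3, Pms2 and Pms1 without passing that limit. Mlh3 in transformed 4 did not pass it either. Msh5 in transformed 4, at 29.7 CPM against 11.03 CPM in the nearest other transformed library, was not among the sets screened. Nor was Rpa2 in transformed 7, at 54.2 CPM against 84.3 CPM in the nearest other transformed library. Exo1 is therefore not shown to be the only level reported here that stands apart.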

How the results depend on the processing

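No member passed the threshold under any of the 19 alternatives (0 of 6 in each). Within lane 7, where 0 of all genes passed, and in the fits that called under 100 genes, this says little about the members. The log2 fold changes (transformed over parental) of the members lie near 0, and each changed sign under at least 1 alternative. The sign turned under 8 of the 19 for Msh3, 4 for Pms1, 3 each for Pms2 and Mlh3, and 1 each for Msh6 and Exo1. Within lane 6 the log2 fold changes that turned were 0.055 for Msh6, 0.079 for Msh3, 0.074 for Pms2 and 0.17 for Pms1. Mlh3 (-0.050) and Exo1 (0.23) kept their signs there, and Setd2 turned to 0.029. Within lane 7 Exo1 was at -0.059. Msh3 was at 0.0016 with DESeq2, 0.0012 with RLE factors and 0.023 with lane as a covariate. Without transformed 4 and 7 the log2 fold changes were 0.052 for Msh3, 0.025 for Pms2, 0.026 for Mlh3 and 0.024 for Pms1. Msh6 (-0.037) and Exo1 (0.18) kept their signs in that fit. Exo1 had its lowest adjusted p there (unadjusted p = 0.0215, adjusted p = 0.0663, edgeR), where 28.9% of genes were called. In that fit 40.8% of all genes had an unadjusted p under 0.05. Leaving out each library in turn gave -0.21 to -0.013 for Msh6, -0.061 to 0.091 for Msh3, -0.079 to 0.0087 for Pms2, -0.18 to 0.11 for Mlh3, -0.14 to 0.015 for Pms1 and 0.038 to 0.17 for Exo1. The ratio of Msh6 to Msh3 (log2 difference) was -0.026 within lane 6, -0.29 within lane 7 and -0.20 to -0.11 with each library left out. Pms2 to Mlh3 was -0.0011 without transformed 4 and 7 and -0.17 to 0.25 with each left out. Pms2 to Pms1 was -0.091 within lane 6, 0.20 within lane 7 and -0.024 to 0.068 with each left out. With each left out, Exo1 to Msh6 ran from 0.18 to 0.29.

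The count of all genes called moved far more, from 533 to 1856 with DESeq2 (860 higher, 996 lower), 94 with lane as a covariate (15 higher, 79 lower), 3565 within lane 6 (1682 higher, 1883 lower), 0 within lane 7 (507 at an unadjusted p under 0.05) and 5042 without transformed 4 and 7. It was 26 without parental 3, 36 without parental 2, 75 without parental 1, 2728 without transformed 4, 86 without transformed 5, 67 without transformed 6, 1343 without transformed 7 and 75 without transformed 8. The lane fits and the fits without a library use fewer libraries or more terms, and the count rose in some of them and fell in others. The cause of the changes in the count was not tested for any of these settings. No paired analysis was possible because the groups share no replicate numbers. Pold4 passed under 18 of the 19 alternatives, E2f1 and Nhej1 under 11 each. Mlh3 had the fewest counts of the members, with 271 to 642 in a library, and the part of depth in its spread was not tested.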
